A study of Capra hircus with 2 samples.

Results

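POU5F1, SALL4, LIN28A, LIN28B, NANOS3, TFAP2C, PRDM1 and DMRT1 are regulators known from the early germ line and from pluripotent cells, and their transcripts were followed here through the fetal goat ovary. The genes were taken by symbol, and each symbol stood on 1 feature, giving 8 of the 27271 features counted. The files list them as ENSCHIG00000021343 (POU5F1), ENSCHIG00000026270 (SALL4), ENSCHIG00000012873 (LIN28A), ENSCHIG00000011133 (LIN28B), ENSCHIG00000007837 (NANOS3), ENSCHIG00000016251 (TFAP2C), ENSCHIG00000023368 (PRDM1) and ENSCHIG00000024212 (DMRT1). The ovaries came from female goats (Capra hircus) at the developmental stages labelled E125 and E85, the embryonic day of collection, with 1 droplet single-cell library per stage and no treatment, allele or breed given in the labels. How many fetuses went into each library is not given in the sources used here, and the text on dissociation mentions testes although the samples are labelled as ovary and as female. Each library is a single sample, so differences between the stages describe these 2 libraries, have no replicate check and carry no p-value. Levels are UMIs, the molecular tags that count captured transcripts, summed over the cells of a class and scaled to the total UMIs of that class as CPM. Intervals are exact 95% intervals that cover counting error only.

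Primordial germ cells are the founders of eggs and sperm. In mouse and human embryos PRDM1 and TFAP2C act in setting these cells apart from the soma, NANOS3 keeps them alive, and POU5F1, SALL4 and LIN28A or LIN28B belong to the network that they share with pluripotent stem cells. As female germ cells enter meiosis this programme is generally turned down in mouse and human, while genes of the oocyte such as FIGLA and ZP3 come on. DMRT1, a DM-domain transcription factor, is needed in the fetal mouse ovary for full activation of Stra8, the gene that opens meiosis.

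The E125 library held 8346 barcodes and 49692252 UMIs, and the E85 library 4397 barcodes and 17748948 UMIs, of which 6980 and 3817 cells were kept. The libraries shared 13 barcodes, 10 of them kept in both, and none of the shared barcodes was a germ cell in both libraries. Germ-cell-like droplets numbered 128 at E125 and 68 at E85, which was 1.83% and 1.78% of kept cells. Of these, 99 at E125 and 54 at E85 held a UMI of DDX4, DAZL or SMC1B. Values for germ cells below include the droplets without one unless stated otherwise. The members were kept out of the genes used for clustering and out of the markers. All 12 germ cell markers listed for the class were detected in it at both stages, with a summed level of 14895 CPM at E125 and 13010 CPM at E85. Its leading genes were oocyte genes such as ZP3, ZP4 and FIGLA, and NANOG, a marker of primordial germ cells in human, had 0 UMIs in it at both stages. Markers of somatic cells were also detected in the class. The highest sum was that of the surface epithelium markers (5 of 5 with a feature at both stages), 582 CPM at E125 and 276 CPM at E85. Steroidogenic markers (3 of 4, with INSL3 at 0) summed to 192 CPM at E125 and 63.0 CPM at E85. Pregranulosa markers (10 of 10 detected at E125, 9 of 10 at E85) summed to 199 CPM at E125 and 104 CPM at E85, stromal markers (9 of 9 at both) to 137 and 198 CPM, and endothelial markers (8 of 9 and 5 of 9) to 20.8 and 37.1 CPM. In large droplets the median share of somatic marker UMIs, with steroidogenic, glia and erythroid markers not counted, was 0.103% at E125 and 0.0297% at E85. That share was not taken for smaller droplets, of which 19 of 58 at E125 and 19 of 46 at E85 held a DDX4 UMI. The part of somatic marker UMIs in the differences between stages was not tested. Depth differed strongly within the class and between stages, with a median of 51855 UMIs per droplet at E125 and 4116 at E85. Droplets of 20000 UMIs or more, called large below, numbered 70 of 128 at E125 and 22 of 68 at E85, and the others had a median of 1834 UMIs at E125 and 2740 at E85. The 10 largest droplets held 23.9% of germ cell UMIs at E125 and 66.6% at E85. The median share of mitochondrial UMIs in germ cells was 1.89% at E125 and 2.52% at E85, and the part of depth and of RNA quality in the differences between stages was not tested.

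The members fell into distinct patterns in germ cells. SALL4 and LIN28B were higher at E125, DMRT1 and POU5F1 were lower at E125, PRDM1 was low at both stages, and LIN28A, NANOS3 and TFAP2C were at or near 0. Of the 8 members, 5 reached the 50 summed germ cell UMIs set for a measured gene. Among these 5, 1 member (SALL4) was at least 2-fold higher at E125, beside 19.1% of all 9003 measured genes, and 1 member (DMRT1) was at least 2-fold lower, beside 18.0% of them. Both shares are close to the background, so the counts are not a result about the members. The median log2 ratio of E125 over E85 was -0.34 for the 5 measured members and -0.07 for all measured genes. Over all measured genes 1721 were 2-fold higher and 1621 lower, a split that became 2251 and 1052 under TMM scaling, which shifted the median of all genes by 0.27 on the log2 scale.

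SALL4 is a zinc finger transcription factor that holds primordial germ cells and stem cells in their state and is also made by mouse oocytes. It had 3153 UMIs in germ cells at E125, or 313 CPM (302 to 324), against 233 UMIs at E85, or 137 CPM (120 to 156). The ratio of E125 over E85 was 2.28 (2.00 to 2.62), and 84.1% of measured genes had a lower ratio. Among large droplets, SALL4 counts ran from 1 through a median of 39 to 101 UMIs at E125, and from 0 through a median of 7 to 63 UMIs at E85. All 70 large droplets at E125 held the transcript, against 18 of 22 at E85. Only 2 of the 22 large droplets at E85 reached the E125 median, although the ranges overlapped. With each large droplet thinned to 20000 UMIs, 97.1% at E125 (90.1 to 99.7) and 77.3% at E85 (54.6 to 92.2) still held a SALL4 UMI, with means of 6.39 and 2.45 UMIs per droplet. In germ cell droplets under 20000 UMIs the level was 234 CPM at E125 against 31.8 CPM at E85, where it rested on 38 and 5 UMIs. Leaving out the 10 largest droplets of each library gave a log2 ratio of 2.02, against 1.19 with them.

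LIN28B, an RNA-binding protein that blocks the maturation of let-7 microRNAs, was higher at E125 by nearly the same factor. It had 217 UMIs at E125, or 21.5 CPM (18.8 to 24.6), against 19 UMIs at E85, or 11.2 CPM (6.74 to 17.5). The ratio was 1.93 (1.20 to 3.26), under the 2-fold limit. Among large droplets the counts ran from 0 through a median of 3 to 13 UMIs at E125 and from 0 through a median of 0 to 5 UMIs at E85. LIN28B was present in 60 of 70 large droplets at E125 and in 8 of 22 at E85. At 20000 UMIs each those shares were 35.7% at E125 (24.6 to 48.1) and 18.2% at E85 (5.19 to 40.3), and the intervals overlap. As a mean over droplets the LIN28B log2 ratio was 1.98, against 0.95 for the sums.

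POU5F1, also called OCT4, is the POU-domain factor at the centre of the pluripotency network. It had 199 UMIs at E125, or 19.8 CPM (17.1 to 22.7), against 64 UMIs at E85, or 37.7 CPM (29.0 to 48.1). The ratio was 0.524 (0.394 to 0.706), a level 1.91-fold lower at E125, and 19.9% of measured genes had a lower ratio. Among large droplets the counts ran from 0 through a median of 2 to 13 UMIs at E125, and from 0 through a median of 1 to 15 UMIs at E85. These raw counts overlap almost fully and their means, 2.81 UMIs per large droplet at E125 and 2.68 at E85, differ little. The E125 droplets were deeper, with a median of 140427 UMIs against 56360 at E85 for large droplets, and the median level per droplet was 0.159 UMIs per 10000 at E125 and 0.315 at E85. At 20000 UMIs each, 22.9% of large droplets at E125 (13.7 to 34.4) and 36.4% at E85 (17.2 to 59.3) held a POU5F1 UMI.

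DMRT1 behaved in the same way. It had 433 UMIs at E125, or 43.0 CPM (39.0 to 47.2), against 153 UMIs at E85, or 90.1 CPM (76.4 to 106). The ratio was 0.477 (0.396 to 0.577), a level 2.10-fold lower at E125. Large droplets carried from 0 through a median of 5 to 32 UMIs at E125 and from 0 through a median of 4.5 to 34 UMIs at E85, ranges that overlap fully. The mean was 6.11 UMIs per large droplet at E125 and 6.64 at E85. DMRT1 was found in 66 of 70 large droplets at E125 and in 21 of 22 at E85, and at 20000 UMIs each in 58.6% at E125 (46.2 to 70.2) and 72.7% at E85 (49.8 to 89.3). The log2 ratio of DMRT1 was -1.07, and -0.80 under TMM scaling, where it no longer passed 2-fold.

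**Figure D1:**
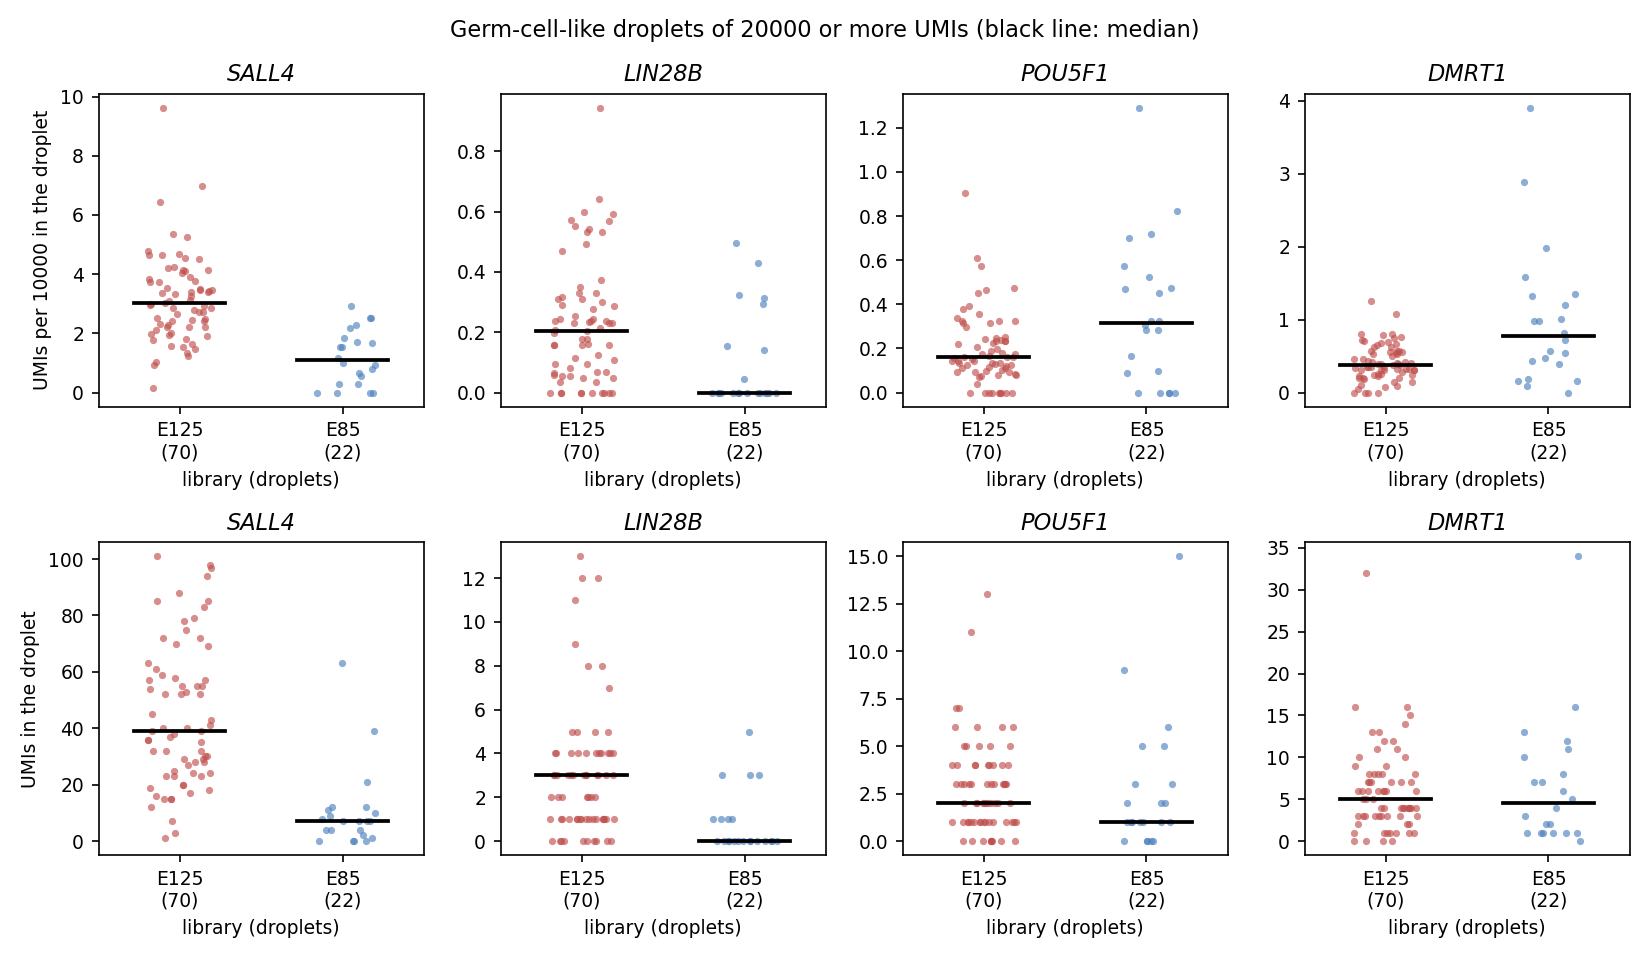
SALL4, LIN28B, POU5F1 and DMRT1 in single germ-cell-like droplets of 20000 UMIs or more at E125 (70 droplets) and E85 (22), as UMIs per 10000 of the droplet (top row) and as UMIs (bottom row), each point a droplet and the black line the median. SALL4 has a median of 39 UMIs at E125 and 7 at E85, in droplets with a median depth of 140427 and 56360 UMIs. The ranges of UMIs overlap between stages for each gene. Per 10000 UMIs the medians at E125 and E85 are 3.02 and 1.09 for SALL4 and 0.205 and 0 for LIN28B. They are 0.159 and 0.315 for POU5F1, and 0.376 and 0.772 for DMRT1.

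PRDM1 (BLIMP1), a zinc finger repressor of the somatic programme in mouse primordial germ cells, was scarce in the germ cells of both stages. It had 47 UMIs at E125, or 4.67 CPM (3.43 to 6.20), against 10 UMIs at E85, or 5.89 CPM (2.82 to 10.8). The ratio was 0.792, with an interval from 0.395 to 1.76 that reaches from 2-fold lower to well above equality. Large droplets with a PRDM1 UMI numbered 30 of 70 at E125 and 6 of 22 at E85, and none held more than 3 UMIs. Taken as a mean over droplets the PRDM1 log2 ratio was -2.72, against -0.34 for the sums and 0.03 for large droplets.

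LIN28A, the paralogue of LIN28B, had 0 UMIs in every barcode of both libraries. NANOS3, an RNA-binding repressor, had 0 UMIs in germ cells at both stages and 1 UMI in the whole E125 library, in a perivascular-like cell. TFAP2C (AP-2 gamma) had 1 germ cell UMI at E125 and 0 at E85, with 2 and 1 UMIs over all barcodes. A count of 0 allows a level of up to 0.298 CPM in germ cells at E125 and 1.77 CPM at E85, taking 3 UMIs as the limit. The transcripts were therefore not detectable at this depth, which does not show them absent.

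Several members were found together in the same large droplets. SALL4, POU5F1 and DMRT1 were all present in 58 of 70 large droplets at E125 and in 14 of 22 at E85. With LIN28B added, 50 droplets at E125 and 8 at E85 held all 4. Every large droplet held at least 1 member. Over pairs of members, Spearman correlations of UMIs per 10000 among large droplets lay between -0.02 and 0.16 at E125 (n = 70) and between -0.20 and 0.45 at E85 (n = 22). No relation between members is read from these values.

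A single large E85 droplet, chosen after its values were seen, stood apart from the rest. It held 27748 UMIs, 16 of the 21 STRA8 UMIs found in E85 germ cells, 8 DMRT1 UMIs, 17 DAZL UMIs and 43 SMC1B UMIs, but 0 UMIs of SALL4, POU5F1, FIGLA and ZP3. Its mitochondrial share was 12.6%. Without it the log2 ratio was 1.17 for SALL4, -0.96 for POU5F1 and -1.01 for DMRT1, close to the values with it.

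**Figure D2:**
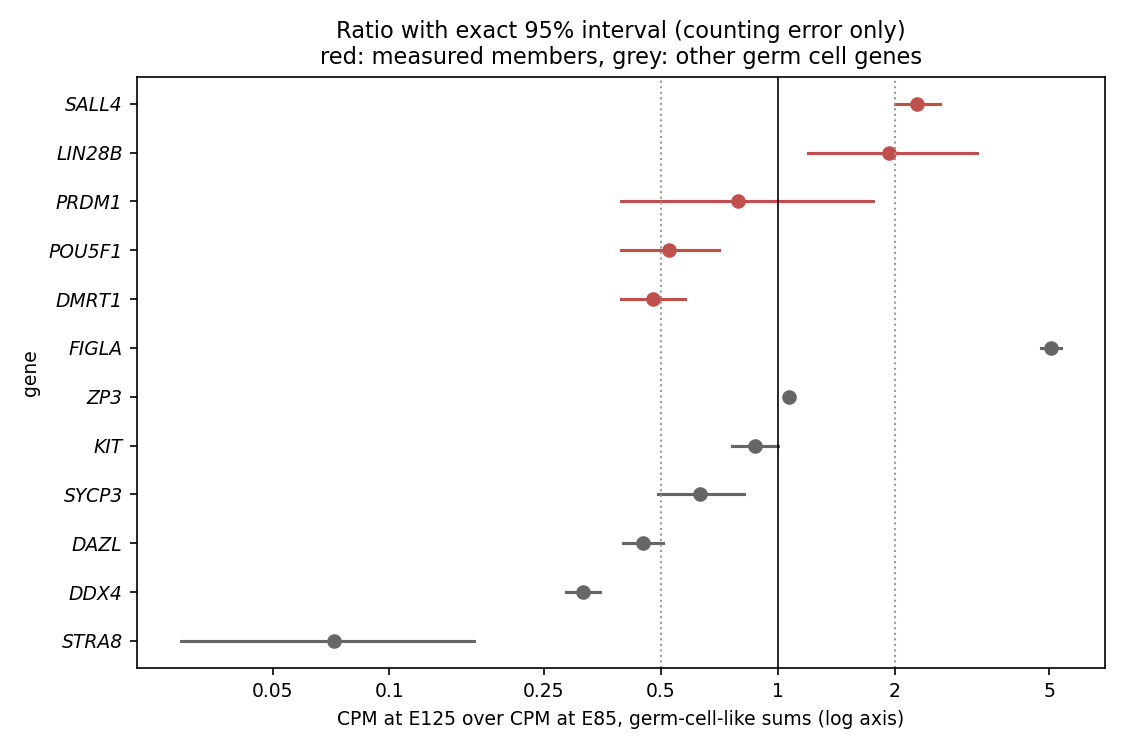
Ratio of E125 over E85 in germ-cell-like droplets, on a log axis, for the 5 measured members (red) and 7 other germ cell genes (grey), each point a class sum with its 95% counting interval, dotted lines at 0.5 and 2. SALL4 at 2.28 and LIN28B at 1.93 lie above 1, POU5F1 at 0.524 and DMRT1 at 0.477 below it, and the PRDM1 interval crosses 1.

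Other germ cell genes give the setting of these differences. FIGLA, a transcription factor of oocytes that drives the zona pellucida genes in mouse, was at 3669 CPM at E125 and 725 CPM at E85, a ratio of 5.06. ZP3, a protein of the egg coat, differed little, with 9612 CPM at E125 and 8945 CPM at E85. The germ cell RNA helicase DDX4 was at 112 CPM at E125 against 357 CPM at E85, a ratio of 0.315, and the RNA-binding protein DAZL at 102 CPM against 227 CPM, a ratio of 0.450. STRA8 had 9 UMIs at E125 and 21 at E85. POU5F1 and DMRT1 thus lay on the same side as DDX4 and DAZL, and SALL4 and LIN28B on the same side as FIGLA.

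Across the ovary, POU5F1, SALL4 and DMRT1 were concentrated in the germ cells at both stages. Germ cells held 94.3% of all POU5F1 UMIs in kept cells at E125 and 91.4% at E85. The shares for SALL4 were 94.9% at E125 and 93.6% at E85, and for DMRT1 93.3% and 89.0%. LIN28B was less confined by this count, with 87.5% of its UMIs in germ cells at E125 and 54.3% at E85. PRDM1 was the opposite, with 4.28% of its UMIs in germ cells at E125 and 3.1% at E85.

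**Figure D3:**
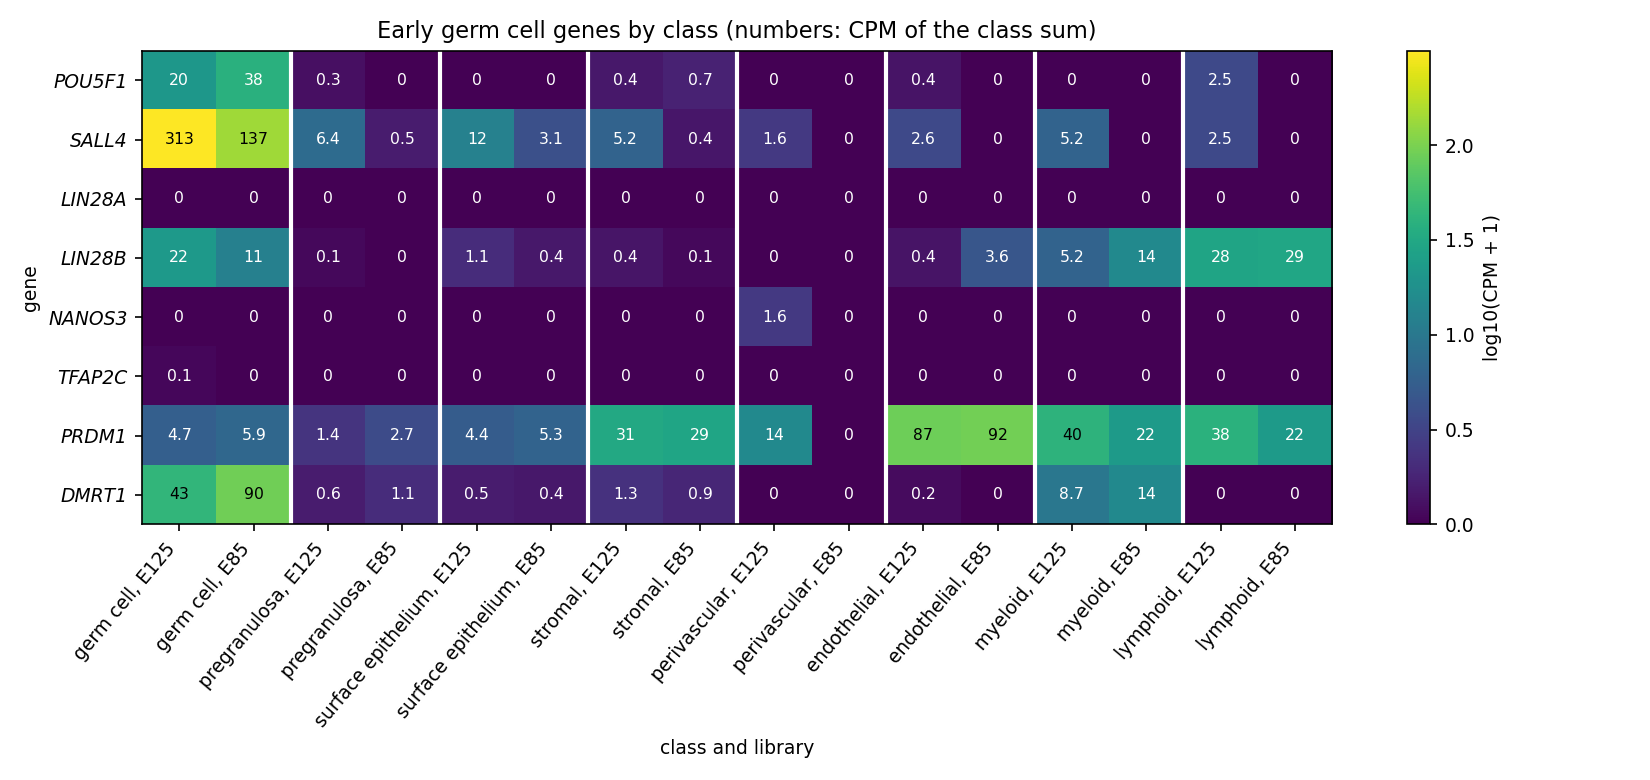
Level of the 8 members (rows) in the germ-cell-like and 7 somatic classes of each library (columns, E125 left of E85), printed as CPM of the class sum and coloured by log10(CPM + 1). POU5F1, SALL4 and DMRT1 are highest in germ cells, and PRDM1 is highest in endothelial-like cells, at 87.1 CPM at E125 and 92.2 CPM at E85.

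PRDM1 was highest in endothelial-like cells, where it had 476 UMIs at E125, or 87.1 CPM (79.4 to 95.3), against 51 UMIs at E85, or 92.2 CPM (68.6 to 121). A PRDM1 UMI was seen in 31.9% of endothelial-like cells at E125 and 32.9% at E85, and the ratio of the levels was 0.945 (0.707 to 1.29). At E125 myeloid-like cells at 40.1 CPM (25.4 to 60.2), lymphoid-like cells at 37.9 CPM (21.2 to 62.4) and stromal-like cells at 31.2 CPM (28.3 to 34.4) came next, and these 3 do not differ beyond their intervals. At E85 the order was stromal-like cells at 28.7 CPM (24.9 to 33.0), then myeloid-like and lymphoid-like cells at 21.7 CPM each, again with overlapping intervals. The stromal ratio of E125 over E85 was 1.09 (0.916 to 1.29). Perivascular-like cells had 14.3 CPM at E125 and 0 UMIs at E85. Surface-epithelium-like cells had 4.37 CPM at E125 and 5.27 CPM at E85, and pregranulosa-like cells 1.39 CPM and 2.73 CPM. An unnamed E125 cluster led by interferon-response genes such as ISG15 and MX1 stood at 69.5 CPM (44.0 to 104), and the E85 part of that cluster at 32.2 CPM (16.6 to 56.3), on 23 and 12 UMIs. Another unnamed E125 cluster, of 63 cells, had FLT4, PROX1, SOX18 and LYVE1 among its leading genes. It stood at 18.9 CPM (8.66 to 36.0), on 9 UMIs, below the endothelial-like class. PRDM1 is known outside the germ line from lymphocytes and macrophages, where it drives terminal differentiation.

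LIN28B was also seen in lymphoid-like cells, at 27.8 CPM (13.9 to 49.7) at E125 and 28.9 CPM (7.88 to 74.1) at E85. These levels rest on 11 and 4 UMIs in 10 of 89 cells and 3 of 26 cells. Germ cells were not higher, at 21.5 CPM (18.8 to 24.6) at E125 and 11.2 CPM (6.74 to 17.5) at E85, and the intervals overlap. Myeloid-like cells had 5.24 CPM at E125 and 14.4 CPM at E85, on 3 and 6 UMIs. LIN28B is known as a regulator of fetal lymphoid development in mouse. DMRT1 had 5 UMIs in 5 of 110 myeloid-like cells at E125, or 8.73 CPM, and 6 UMIs in 5 of 51 at E85, or 14.4 CPM. These counts are too few to order the stages.

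In droplet libraries free RNA gives UMIs in cells that do not make a transcript, and the oocyte gene ZP3 serves as a gauge of it. From 1 source, a member and ZP3 would stand in the same ratio in every class. SALL4 had 3.26 UMIs per 100 ZP3 UMIs in germ cells at E125, while stromal-like cells had 3.78, endothelial-like cells 3.63 and surface-epithelium-like cells 3.45, with intervals that hold the germ cell value. E125 pregranulosa-like cells had 16.7 (11.9 to 22.8), from 46 SALL4 and 276 ZP3 UMIs, above the germ cell ratio. Per cell, pregranulosa-like and stromal-like cells at E125 had 0.473 and 0.425 ZP3 UMIs, and 0.0789 and 0.0161 SALL4 UMIs. Their SALL4 levels were 6.41 and 5.19 CPM, at median depths of 7944 and 2779 UMIs. At 2000 UMIs per cell a SALL4 UMI was seen in 0.568% of pregranulosa-like cells, on 3 UMIs, and in 1.00% of stromal-like cells. At E85 surface-epithelium-like cells stood at 7.37 (2.88 to 15.8), on 7 SALL4 UMIs, above the 1.53 of E85 germ cells, while pregranulosa-like cells with 0.352 (0.00888 to 1.98) and stromal-like cells with 1.45 (0.296 to 4.29) had intervals that hold it. POU5F1 stood at 2.42 (0.776 to 5.73) in E85 stromal-like cells, on 5 UMIs, against 0.421 in E85 germ cells. The cause of the higher ratios was not tested.

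SALL4 UMIs outside the germ cells were themselves more frequent at E125. Stromal-like cells had 70 UMIs at E125, or 5.19 CPM, against 3 at E85, or 0.431 CPM. Their ZP3 UMIs per cell were 0.425 at E125 and 0.0841 at E85. Per 100 ZP3 UMIs their SALL4 stood at 3.78 and 1.45, beside 3.26 and 1.53 in germ cells. Pregranulosa-like cells had 46 SALL4 UMIs at E125 and 1 at E85, with 0.473 and 0.953 ZP3 UMIs per cell. Surface-epithelium-like cells had 21 SALL4 UMIs at E125, or 11.5 CPM, against 7 at E85, or 3.07 CPM. Their ZP3 UMIs per cell were 3.50 at E125 and 0.363 at E85. Of the 21 SALL4 UMIs at E125, 15 stood in a cluster of 33 cells, at 40.2 CPM. That cluster also held 447 of the 609 ZP3 UMIs of the class. The E125 cluster of 141 cells in this class held 6 SALL4 UMIs, at 4.12 CPM, and 162 ZP3 UMIs. The cause of the differences between stages and clusters was not tested.

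The same measure put the immune counts above the germ cell ratio. LIN28B had 0.224 UMIs per 100 ZP3 UMIs in germ cells at E125 and 23.9 (11.2 to 46.9) in lymphoid-like cells. DMRT1 had 0.447 in germ cells at E125 and 10.6 (3.30 to 26.6) in myeloid-like cells, and at E85 1.01 and 120 (30.5 to 497). Stromal-like cells had 0.918 (0.534 to 1.47) for DMRT1 at E125, on 17 UMIs, and 2.90 (1.05 to 6.42) at E85, on 6 UMIs. PRDM1 in endothelial-like cells stood at 123 (108 to 141) at E125 against 0.0485 in germ cells.

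**Figure D4:**
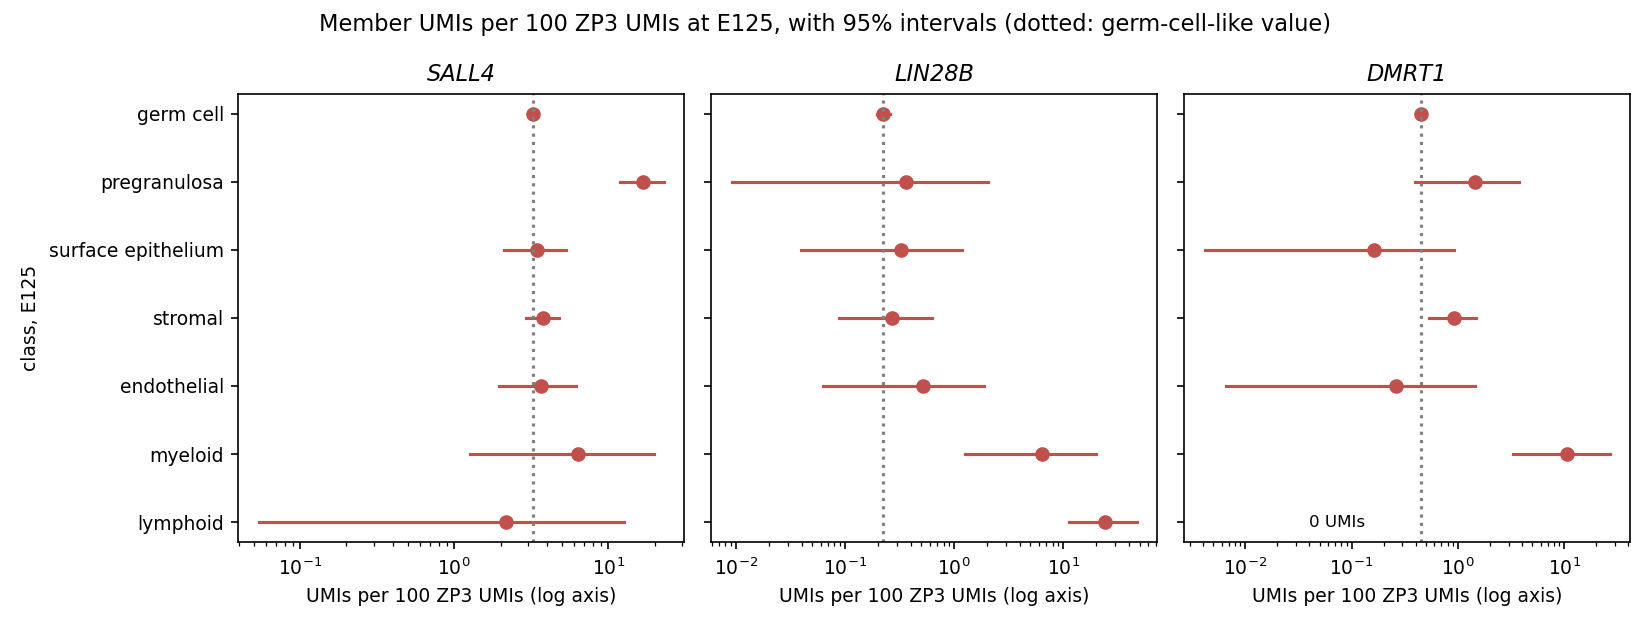
UMIs of SALL4, LIN28B and DMRT1 per 100 ZP3 UMIs (log axis) in 7 classes of the E125 library, each point a class sum with its 95% counting interval and the dotted line the germ-cell-like value. SALL4 in pregranulosa-like cells lies above the line at 16.7, LIN28B in lymphoid-like cells at 23.9 and DMRT1 in myeloid-like cells at 10.6.

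At 2000 UMIs per droplet, 28.1% of 96 germ-cell-like droplets at E125 (19.4 to 38.2) and 13.2% of 53 at E85 (5.48 to 25.3) held a SALL4 UMI. These intervals overlap. In stromal-like cells the shares were 1.00% and 0.0543%. Unthinned, the germ cell shares were 70.3% at E125 and 33.8% at E85. At that depth POU5F1 and DMRT1 were each seen in 4 of 96 germ cells at E125, and in 1 and 3 of 53 at E85, so equal-depth shares of these members cannot order the stages.

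The genes around the members were counted in lists that were chosen with earlier results of these data known. Of 36 other pluripotency and primordial germ cell regulators, 13 were measured in germ cells, 2 of them 2-fold higher and 2 lower at E125, with a median log2 ratio of 0.39. NANOS1, a relative of NANOS3, had 146 UMIs at E125 and 1 at E85, a ratio of the counts themselves of 24.6 (4.35 to 979) and of 8.20 with the E85 sum set to a floor of 3 UMIs, and the Krüppel-like factor KLF2 had 73 and 3 UMIs, a ratio of 4.10 (1.35 to 20.4). KLF5 (ratio 0.329) and SOX15 (0.496) were lower. NANOG, TBXT and NANOS2 had 0 germ cell UMIs at both stages, and DPPA2, DPPA3, DPPA4, DPPA5, UTF1, ZFP42, TDGF1, L1TD1, PDPN and IFITM3 had no feature under their symbol.

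Of the 21 genes of the LIN28 and let-7 axis 13 were measured, 3 higher and 2 lower, with a median of -0.35. The higher ones were AGO2, an Argonaute protein, at a ratio of 2.23 on 4 UMIs at E85, DGCR8, a partner of DROSHA in microRNA processing, at 2.03, and TRIM71 at 2.02. CCND1 (0.269) and IGF2BP2 (0.408) were lower. Of 19 genes listed as partners of SALL4 and PRDM1, which belong to the NuRD, PRMT5, TLE and CoREST corepressors, 13 were measured, 1 higher and 4 lower, with a median of 0.27. RCOR1, the CoREST scaffold, was higher at 4.09 on 4 UMIs at E85, and the histone chaperones RBBP4 (0.205) and RBBP7 (0.359), the deacetylase HDAC2 (0.360) and PRMT5 (0.421) were lower.

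Of the 16 PUMILIO and CCR4-NOT genes, the machinery through which NANOS proteins silence messenger RNA, 14 were measured, 2 higher and 4 lower, with a median of -0.32. DND1, an RNA-binding protein that primordial germ cells need for survival in mouse, had 86 UMIs at E125 and 0 at E85. With the E85 sum set to the floor the DND1 ratio was 4.83, with a lower 95% limit of 3.85. CNOT11 was higher at 5.51, while CNOT7 (0.320), CNOT6 (0.322), CNOT2 (0.408) and CNOT1 (0.472) were lower. Of 8 other DMRT and TFAP2 genes only DMRT2 was measured, with a ratio of 1.11. Over all lists 54 of 100 genes were measured, 8 higher and 12 lower with a median of -0.10, beside the 19.1% and 18.0% of all measured genes.

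Likeness was measured as Pearson's r of log2(CPM + 10) over 15 class-by-library sums of 40 or more cells, as a description, since sums of 1 library share depth and free RNA. The genes most like POU5F1 were LYPD4 (0.996), TERB1 (0.994) and HRG (0.992). HCN4 (0.990), ACTL7B (0.989) and LHX2 (0.989) were most like SALL4, and TEX12 (0.992), DLL3 (0.981) and PKMYT1 (0.977) most like DMRT1. LIN28B was followed by SRI (0.940), SEPTIN1 (0.935) and WARS1 (0.886), and PRDM1 by FLI1 (0.929), ST8SIA4 (0.914) and KLF2 (0.902).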

How the data were processed

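Fetal goat ovary was profiled with the 10x 3' kit of version 3.1, per the labels' protocols. The authors deposited raw UMI counts per gene and barcode. The submitters' processing notes name Cell Ranger 3.1, the matrices 6.0.0 per the file headers, and the genome build is not given in the sources used here. Barcodes under 500 genes or over 20% mitochondrial UMIs were left out (809 at E125, 425 at E85). Scrublet's own threshold called 0 and 2 doublets, so the highest scores were removed at 0.8% per 1000 barcodes (557 and 155). Cells of both libraries were clustered together with scanpy 1.11.5 (2000 variable genes, 30 components, 15 neighbours, resolution 1). A cluster took the class with the highest mean marker share, if that was at least 0.3, at least 3 markers reached 0.25 and at least 1 stood among its top 10 genes. This naming rule was chosen after the clusters were seen, and a difference from the study may come from rebuilt names. At E125 612 cells and at E85 535 stayed unnamed.

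Counts were summed per class and divided by the class total. Sums carry exact Poisson, shares exact Clopper-Pearson and ratios exact conditional intervals, covering counting error only, and a sum under 3 UMIs was set to a floor of 3 for calls and for ratios against 0, with no ratio where both sums were at 3 UMIs or fewer. The scripts were tested on simulated data. No test was run, since each stage has 1 library. The members and lists were chosen with earlier results of these data known. All members are described, and of each list up to the 2 highest and 2 lowest ratios past 2-fold were named, with others added after their values were seen. The limit of 20000 UMIs for large droplets came from earlier results, and thinning to that depth, leaving out the droplet rich in STRA8 and keeping only droplets with a UMI of DDX4, DAZL or SMC1B were chosen after seeing the data. Alternatives changed the scaling (TMM from edgeR 4.0.16), droplets, filters and clustering. No RefSeq gene overlapped a member, and no sequence is printed because none was at hand.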

Additional observations from a re-analysis of the deposited data

Results flagged for a closer look

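UMIs of 5 members stood in barcodes left out of the comparisons (filtered or taken as doublets), data outside the main measurement. SALL4 had 101 such UMIs at E125 and 9 at E85. POU5F1 had 4 at E125 and 4 at E85, LIN28B 13 and 8, and DMRT1 13 and 17. PRDM1 had 136 at E125 and 22 at E85.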

How the results depend on the processing

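No paired analysis was possible because each stage has 1 library, and leaving out a replicate was not possible for the same reason. SALL4 and DMRT1 kept their direction in every alternative run, and POU5F1 in every one except thinning to 2000 UMIs. There POU5F1 had 4 UMIs in 96 droplets at E125 and 1 in 53 at E85. Its log2 ratio of -0.44 rests on that 1 UMI being raised to the floor of 3. The counts themselves were not lower at E125, with a UMI in 4.17% and 1.89% of droplets. LIN28B kept its direction where it had more than 3 UMIs in a library. It gave no ratio in droplets under 20000 UMIs (3 UMIs at E125 and 1 at E85) or when thinned to 2000 UMIs (0 and 0). PRDM1 gave no ratio in these settings either. PRDM1, -0.34 as reported, was 0.03 in large droplets and 0.13 in droplets with a UMI of DDX4, DAZL or SMC1B. Over the alternatives the log2 ratio ran from 1.07 to 2.88 for SALL4, from 0.89 to 1.98 for LIN28B, from -0.97 to -0.44 for POU5F1, from -1.15 to -0.53 for DMRT1 and from -2.72 to 0.13 for PRDM1. The count of members 2-fold higher, 1 in the values reported, was 2 under TMM factors, under median-of-ratios size factors, under the mean over droplets and without the 10 largest droplets. The count 2-fold lower, 1 as reported, was 0 under TMM factors, size factors, in droplets under 20000 UMIs and with droplets thinned to 2000 UMIs. Listed genes higher, 8 as reported, numbered 13 under TMM factors, 13 under size factors, 17 under the mean over droplets and 4 when thinned, and those lower, 12 as reported, numbered 3 in droplets under 20000 UMIs and 5 when thinned. The cause was not tested. The germ cell sum held 10073082 UMIs at E125 and 1698064 at E85, where 66.6% came from 10 droplets.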
